A study of Mus musculus with 6 samples.

Results

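Nuclear genes for subunits of the oxidative phosphorylation system were examined in an immortalized fibroblast model without Kdm5a. The list held 51 genes of complexes I to V and cytochrome c, listed for their known place in these complexes. Of these, 50 were measured among the 18194 genes on the array: 19 of complex I, 4 of complex II, 6 of complex III, 1 for cytochrome c, 8 of complex IV and 12 of complex V. Cox7b, the other listed gene of complex IV, was not analysed here, because no probe set was paired with it alone. Ndufa4, first assigned to complex I and later to complex IV, is counted with complex I. Each gene was read from 1 probe set, the one with the highest mean among those that name a single gene, and 32 of the 50 had more than 1.

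All cells carried the same Kdm5a-/- genotype on a mixed background strain, and were mouse embryonic fibroblasts that differed in what had been put back. The groups were KDM5A-H483A, a form whose histidine at that position is replaced by alanine, wild-type KDM5A, and the empty vector, each with 2 arrays labelled as biological replicates. Subconfluent cultures in serum-containing medium were harvested with trypsin for total RNA, which was hybridised to Affymetrix M430 2.0 arrays. Neither the promoter that drives the reintroduced KDM5A nor the number of clones behind the cells is stated in the labels. They also leave unstated how replicate cultures were separated, so a p-value reflects only the spread among these arrays, which may be technical.

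Oxidative phosphorylation makes most of the ATP of a resting aerobic cell. Complex I takes electrons from NADH and complex II from succinate, coenzyme Q carries them to complex III, cytochrome c carries them to complex IV, where oxygen is reduced, and complex V uses the proton gradient built along the way to make ATP. Most subunits are encoded in the nucleus, a few core ones in mitochondrial DNA, and many of the nuclear genes have binding sites for NRF1, for the ETS factor GABP or for YY1 near their start sites. KDM5A removes methyl groups from lysine 4 of histone H3, a mark of active promoters, and has been linked to nuclear genes of mitochondria.

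Values are log2 expression values, so that a difference of 1 is a doubling, and levels are compared only within a gene, since probe sets bind with different strength. The fibroblast label was borne out by 7 of 11 fibroblast markers above the 90th percentile of all probe sets, with Lum the lowest at the 57.5th, while none of the markers of 6 other cell types passed the 90th and the highest, Kdr, stood at the 76.7th. The main probe set of Kdm5a read 6.11 and 5.89 in KDM5A-H483A cells, 5.96 and 5.83 in wild-type KDM5A cells and 5.89 and 5.83 in empty vector cells. These overlapping values do not show the reintroduction, and where the probes lie relative to the deleted part or the introduced sequence is not stated, so they check no label. In such bulk samples, fewer cells of a type and less RNA per cell cannot be told apart.

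The oxidative phosphorylation genes stood out in 1 array, the second of KDM5A-H483A, rather than in a group. In that array 33 of the 50 members had their highest value of all 6 arrays, against 23.2% of all genes and 29.8% of the 5118 genes with a mean above 7, the range in which all 50 members lie. In the first KDM5A-H483A array, 21 members had their lowest value, against 14.4% of all genes and 13.7% of genes with a mean above 7. The second array lay above the first for 48 of 50 members in KDM5A-H483A cells, where the background was 49.6% of all genes and 52.9% of genes with a mean above 7. In wild-type KDM5A cells the second array was the higher one for 30 of 50 members (47.3% and 50% of the same backgrounds), and in empty vector cells for 13 (49.6% and 54.5%). Both exceptions among the KDM5A-H483A values, Uqcrb of complex III and Atp5h of the ATP synthase stalk, are named here because they are the only ones, a choice made after their values were seen.

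The median difference between the second and the first array was 0.49 in KDM5A-H483A cells, with a range of -0.37 to 1.02. It was 0.04 in wild-type KDM5A cells, with a range of -0.45 to 0.75, and -0.08 in empty vector cells, with a range of -0.65 to 0.30. A difference of 0.5 or more in favour of the second array was seen for 22 members in KDM5A-H483A cells (8.08% of all genes, 15.8% of genes with a mean above 7). In wild-type KDM5A cells it was seen for 2 members, Cycs and Ndufa4 (4.52% and 8.66%), and in empty vector cells for none of the 50 (1.6% and 2.52%). The median SD of a member was 0.35 in KDM5A-H483A cells, 0.10 in wild-type KDM5A cells and 0.09 in empty vector cells (n = 2 arrays each). Over all 6 arrays the median member spanned 0.55, and over the 5 arrays other than the second KDM5A-H483A array it spanned 0.32. This is a difference between replicates of 1 group, and it is described here without a test.

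**Figure D1:**
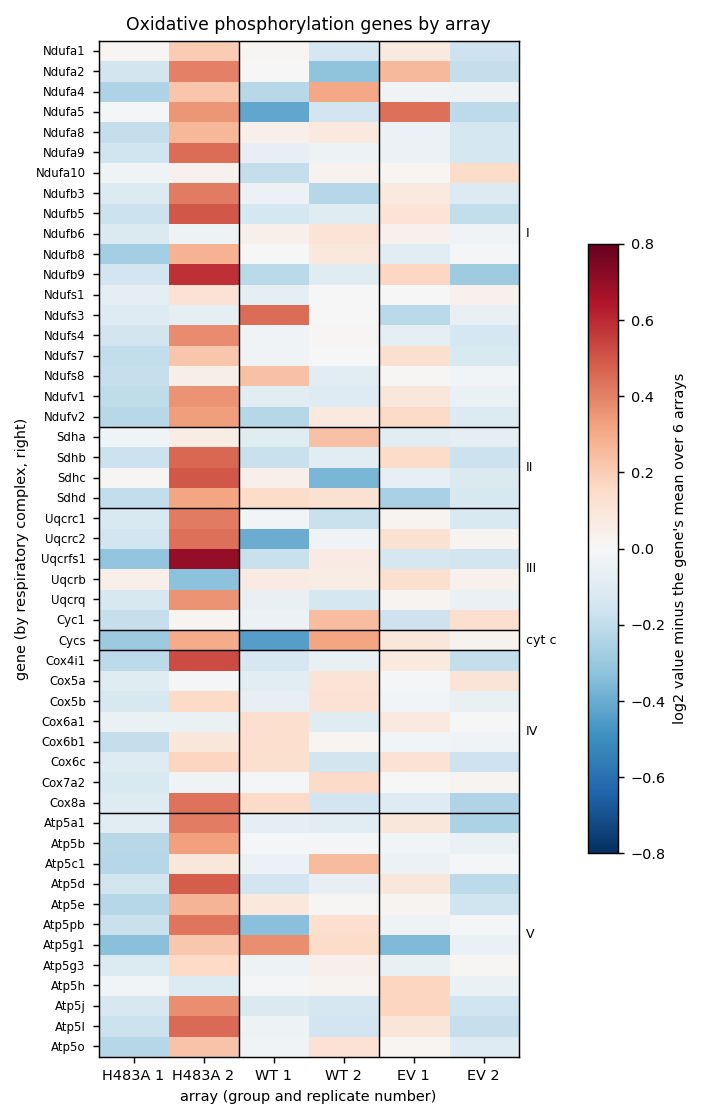
Deviation of each of the 50 genes (vertical axis, ordered by respiratory complex) from its own mean over the 6 arrays (horizontal axis, group and replicate number), in log2 units by colour, red above and blue below. The second KDM5A-H483A array is red for most genes of every complex, while the first KDM5A-H483A array is mostly pale blue and no other array is coloured as evenly; Uqcrb is the deepest blue gene of that array.

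The second KDM5A-H483A array had the higher median in every complex. The median difference between the second and the first KDM5A-H483A array was 0.47 over the 19 members of complex I, 0.50 over the 4 of complex II, 0.51 over the 6 of complex III, 0.59 for cytochrome c, 0.27 over the 8 of complex IV and 0.50 over the 12 of complex V. Within complex I, the 6 nuclear-encoded core subunits had a median of 0.33 and the 13 accessory subunits one of 0.53. Within complex V, the 5 subunits of the F1 part, central stalk included, and the 7 of the membrane part and peripheral stalk both had a median of 0.50. Complex IV had the smallest median, with Cox6a1 at 0.00, Cox4i1 at 0.73 and 4 of its 8 members highest in that array. The values of complex IV depend on the probe set. Another probe set gave a larger difference for Cox5a (0.25), Cox6a1 (0.34), Cox6b1 (0.44) and Cox7a2 (0.33). For Cox6c the other probe set gave -0.33.

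Uqcrfs1, the Rieske iron-sulfur protein of complex III, had the largest difference between the KDM5A-H483A arrays. It read 8.37 and 9.39 in KDM5A-H483A cells, 8.51 and 8.75 in wild-type KDM5A cells and 8.55 and 8.54 in empty vector cells. The second KDM5A-H483A array stood 0.64 above the next highest array, and the first stood below all others. Cox4i1, which encodes the common isoform of a nuclear subunit of cytochrome c oxidase, showed the same layout. It read 10.36 and 11.09 in KDM5A-H483A cells, 10.43 and 10.51 in wild-type KDM5A cells and 10.65 and 10.38 in empty vector cells. Ndufb9, an accessory subunit of the membrane arm of complex I, read 9.84 and 10.58 in KDM5A-H483A cells, 9.78 and 9.89 in wild-type KDM5A cells and 10.16 and 9.71 in empty vector cells. The second KDM5A-H483A array was again the highest, by 0.42 over the next, and the other 5 arrays overlapped between groups.

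Other probe sets of the members gave a similar picture. Of 26 further probe sets of 23 members, counting those with a mean above 5 that are not of the kind prone to cross-hybridization, 23 were higher in the second than in the first KDM5A-H483A array and 17 were highest there of all 6. Their median difference was 0.36. The probe sets of Uqcrb disagreed: the chosen one read 12.53 and 12.16 in KDM5A-H483A cells, while another read 8.91 and 9.39 there. Those of Cox6c, a small subunit of complex IV, disagreed the other way, with 10.63 and 10.91 for the chosen one and 10.50 and 10.16 for the other. A further probe set of Atp5a1, the alpha subunit of the F1 head, read 9.10 and 8.26 in KDM5A-H483A cells against 10.62 and 11.12 for the chosen one, so the direction depends on the probe set. In all, 21 of the 26 ran the same way as the chosen probe set, and the 5 that did not were of Uqcrb, Atp5h, Cox6c, Uqcrq and Atp5a1.

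**Figure D2:**
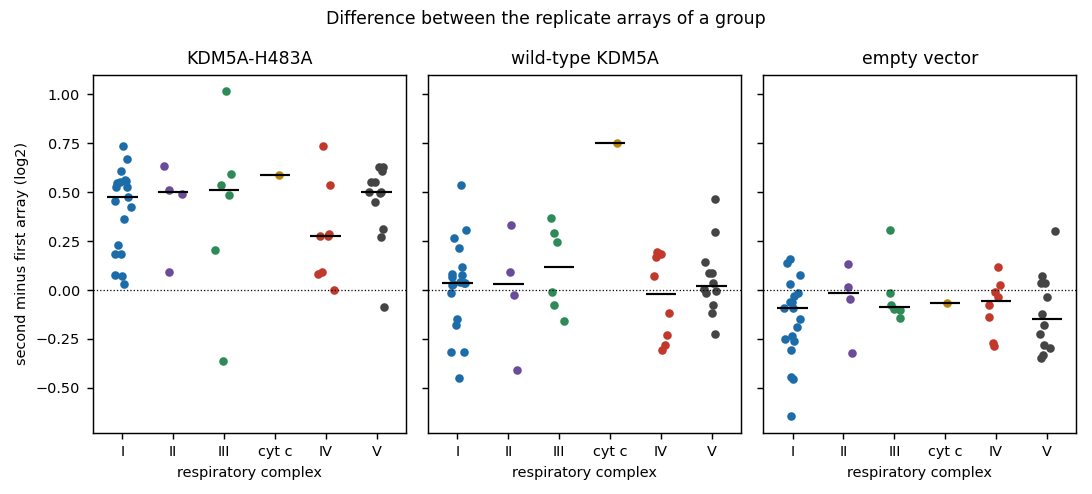
Second minus first array of each group (vertical axis, log2 units) for every gene, by respiratory complex (horizontal axis); points are genes, bars are medians and the dotted line is 0. In KDM5A-H483A cells 48 of 50 genes lie above 0 and the medians of the complexes run between 0.27 and 0.59, while in wild-type KDM5A and empty vector cells the points scatter on both sides of 0.

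The second KDM5A-H483A array also stood apart over all genes, and other measures differed between replicate arrays of more than 1 group. It held the highest or the lowest value of 46.3% of all genes, against 27.0% for the first KDM5A-H483A array, 38.0% and 37.3% for the wild-type KDM5A arrays and 26.3% and 25.1% for the empty vector arrays. The summed level of the 11 fibroblast markers was 15.36 and 14.91 in KDM5A-H483A cells, 15.44 and 14.74 in wild-type KDM5A cells and 15.21 and 15.12 in empty vector cells (log2 of the summed linear values). The sum is dominated by the brightest markers. Of the 11, 8 were lower in the second than in the first array in KDM5A-H483A cells, 11 in wild-type KDM5A cells and 9 in empty vector cells. Col3a1, a fibrillar collagen, was low in the second arrays of both KDM5A groups, with 12.90 and 10.24 in KDM5A-H483A cells, 13.13 and 10.51 in wild-type KDM5A cells and 12.70 and 12.35 in empty vector cells. The 3 markers that went the other way in KDM5A-H483A cells were Vim, with 13.00 and 13.39, S100a4, with 11.52 and 12.10, and Thy1, with 7.31 and 7.83. The median deviation of the members from their own means was 0.29 in the second KDM5A-H483A array and 0.00 in the second wild-type KDM5A array. Whether this deviation is linked to the marker levels was not tested. The control probe sets for RNA integrity did not single that array out: the 3′ signal exceeded the 5′ signal of Gapdh by 1.71 and 1.66 in KDM5A-H483A cells, 1.31 and 1.82 in wild-type KDM5A cells and 1.86 and 1.74 in empty vector cells.

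Promoters of 5 members are shown, picked after their values were seen, to set windows with and without the motifs known from this gene family beside differences between 1.02 and 0.00. RefSeq windows of 300 bases, from 250 before to 50 after the annotated start, were held for 39 of the 50 members on build GRCm38.p6, and capitals mark matches on either strand to the NRF1 motif (GCGCA, any base, GCGC), the ETS motif CCGGAAG or the YY1 motif ATGGCGG. The windows are chr13:30545267-30545566 on the minus strand for Uqcrfs1, chr3:32736813-32737112 on the plus strand for Ndufb5, chr19:7217567-7217866 on the minus strand for Cox8a, chr9:50603800-50604099 on the minus strand for Sdhd and chr5:115348909-115349208 on the minus strand for Cox6a1. They are printed 5′ to 3′ in the direction of the gene, ordered from the largest to the smallest difference between the KDM5A-H483A arrays.
Uqcrfs1: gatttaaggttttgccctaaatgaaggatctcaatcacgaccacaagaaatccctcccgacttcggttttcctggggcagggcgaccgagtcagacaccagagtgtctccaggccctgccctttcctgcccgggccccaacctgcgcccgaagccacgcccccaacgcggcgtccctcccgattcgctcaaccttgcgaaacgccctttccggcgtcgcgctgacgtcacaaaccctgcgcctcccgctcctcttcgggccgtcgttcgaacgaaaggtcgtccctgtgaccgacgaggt
Ndufb5: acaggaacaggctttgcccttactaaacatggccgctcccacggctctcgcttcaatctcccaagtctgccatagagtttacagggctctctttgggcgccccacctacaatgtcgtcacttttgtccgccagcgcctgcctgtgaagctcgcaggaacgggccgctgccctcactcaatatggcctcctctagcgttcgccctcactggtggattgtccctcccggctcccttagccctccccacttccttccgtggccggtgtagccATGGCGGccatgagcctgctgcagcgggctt
Cox8a: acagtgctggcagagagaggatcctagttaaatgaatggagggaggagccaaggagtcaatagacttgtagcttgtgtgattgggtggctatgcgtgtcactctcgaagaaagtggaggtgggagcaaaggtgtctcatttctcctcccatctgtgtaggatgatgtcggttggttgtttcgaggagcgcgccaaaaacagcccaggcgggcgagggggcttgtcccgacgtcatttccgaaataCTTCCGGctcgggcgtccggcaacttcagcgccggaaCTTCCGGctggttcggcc
Sdhd: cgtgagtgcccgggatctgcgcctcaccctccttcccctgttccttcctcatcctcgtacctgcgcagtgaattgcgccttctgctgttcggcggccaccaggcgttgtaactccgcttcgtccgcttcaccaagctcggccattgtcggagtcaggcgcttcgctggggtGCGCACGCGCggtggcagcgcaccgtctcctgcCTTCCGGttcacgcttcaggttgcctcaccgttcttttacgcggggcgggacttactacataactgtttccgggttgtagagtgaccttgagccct
Cox6a1: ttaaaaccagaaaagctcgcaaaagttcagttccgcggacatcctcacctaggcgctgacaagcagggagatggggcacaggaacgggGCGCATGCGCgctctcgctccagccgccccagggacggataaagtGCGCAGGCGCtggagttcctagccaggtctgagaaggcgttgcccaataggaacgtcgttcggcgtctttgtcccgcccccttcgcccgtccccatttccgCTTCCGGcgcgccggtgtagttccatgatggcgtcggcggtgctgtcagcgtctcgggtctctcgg
Uqcrfs1, with a difference of 1.02, had none of these letters in its window. Ndufb5, an accessory subunit of complex I with a difference of 0.67, had 1 YY1 match, after the start. Cox8a, a small nuclear subunit of complex IV, had a difference of 0.54 and 2 ETS matches, and Sdhd, a membrane anchor of succinate dehydrogenase, had 0.51 with 1 NRF1 and 1 ETS match. Cox6a1 had 2 NRF1 matches and 1 ETS match, the most of the 5 windows, and a difference of 0.00. Another probe set of Cox6a1 gave a difference of 0.34, so this contrast depends on the probe set.

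Across the family, NRF1 letters were found in 25.6% of the 43 windows of members, against 7.43% of 18110 windows of 14453 genes on the array. ETS letters were found in 27.9% against 13.0%, YY1 letters in 18.6% against 5.91%, the E-box CACGTG in 11.6% against 8.72% and CCAAT in 37.2% against 37.4%. The median GC content was 59% in the members' windows and 58.3% in the windows of genes on the array, and no match of one motif overlapped a match of another. Between the KDM5A-H483A arrays, the members with NRF1 or ETS letters had the smaller median difference, those with E-box letters had the larger one, and for YY1 and CCAAT the medians were close. The median difference was 0.34 for the 10 members with NRF1 letters and 0.53 for the 29 without, 0.39 for the 12 with ETS letters and 0.53 for the 27 without, and 0.51 for the 8 with YY1 letters and 0.47 for the 31 without. It was 0.56 for the 5 with an E-box and 0.47 for the 34 without, and 0.50 for the 15 with CCAAT and 0.49 for the 24 without. These are counts of letters in a window, and they do not show binding. The differences are those of the chosen probe sets, and for some members they depend on the probe set.

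Between the groups, no member passed the test. Limma's moderated test, with Benjamini-Hochberg adjustment across the 18194 genes, called 0 genes in each of the 3 comparisons, so the background was 0% as well. At an unadjusted p under 0.05, 0 of the 50 members were found in each comparison, against 1.65% of all genes for KDM5A-H483A against empty vector, 2.52% for wild-type KDM5A against empty vector and 3.81% for KDM5A-H483A against wild-type KDM5A. The 95% confidence interval of a member's log2 fold change reached to a median of 0.46 on either side. It lay within 1 of 0, less than a doubling either way, for 49 of 50 members in KDM5A-H483A against empty vector, for 50 in wild-type KDM5A against empty vector and for 47 in KDM5A-H483A against wild-type KDM5A. The exceptions were Uqcrfs1 in both comparisons that involve KDM5A-H483A and Ndufa5 and Ndufb9 in KDM5A-H483A against wild-type KDM5A. The comparisons share arrays, so their values are given side by side and not as independent support.

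**Figure D3:**
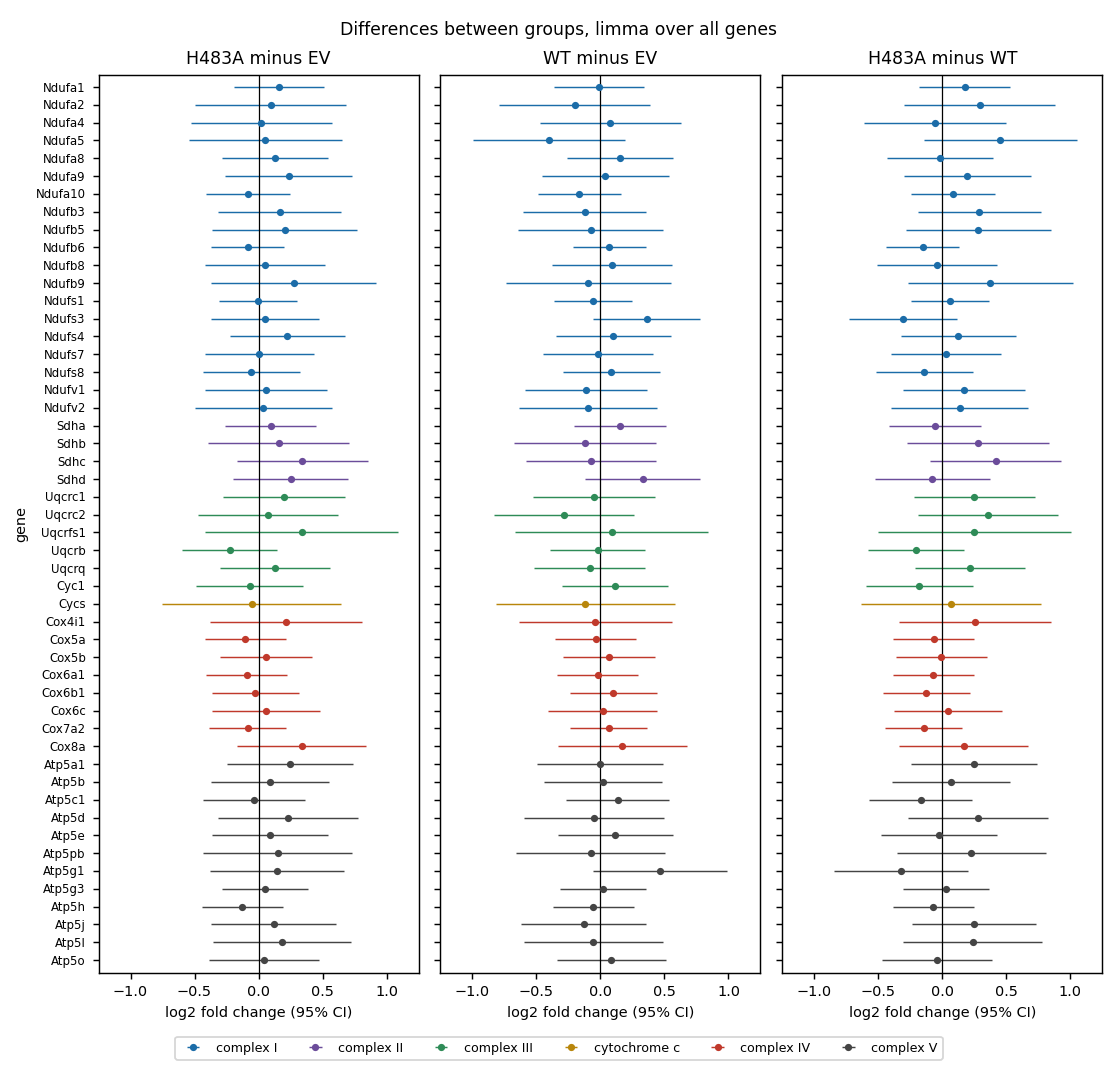
Log2 fold change of each gene (horizontal axis, points) with its 95% confidence interval from limma (lines), coloured by respiratory complex, for KDM5A-H483A minus empty vector, wild-type KDM5A minus empty vector and KDM5A-H483A minus wild-type KDM5A. Every interval crosses 0, and the point estimates lie between -0.40 and 0.46.

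For KDM5A-H483A against empty vector, the median log2 fold change of the 50 members was 0.08, with a range of -0.23 to 0.34, beside 0.00 over all genes and 0.01 over genes with a mean above 7. It was above 0 for 37 of 50 members, against 50.2% of all genes and 52.8% of genes with a mean above 7. That count turned on 1 array: without the second KDM5A-H483A array it was 5 of 50 with a median of -0.13, and without the first it was 43 with a median of 0.33. The complexes had medians of 0.05 for I, 0.20 for II, 0.10 for III, 0.02 for IV and 0.10 for V. The KDM5A-H483A arrays lay wholly above the empty vector arrays for 2 members, Sdha and Sdhc (13.6% of all genes, 11.7% of genes with a mean above 7). They lay wholly below for 4, Cox5a, Cox6a1, Cox7a2 and Ndufb6 (14.6% and 10.4%).

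Sdhc, which with Sdhd anchors succinate dehydrogenase in the inner membrane, read 7.85 and 8.34 in KDM5A-H483A cells and 7.78 and 7.73 in empty vector cells. The groups did not overlap, but the lower KDM5A-H483A value was close to both empty vector values. The log2 fold change was 0.34, with a 95% confidence interval of -0.17 to 0.85 and an adjusted p of 0.999 by limma. Cox8a read 8.71 and 9.24 in KDM5A-H483A cells and 8.71 and 8.57 in empty vector cells, and Uqcrfs1 had the values given above. The first KDM5A-H483A array was level with the higher empty vector value for Cox8a and below both for Uqcrfs1. Their log2 fold changes were 0.34 each, with intervals of -0.17 to 0.84 for Cox8a and -0.42 to 1.09 for Uqcrfs1.

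Atp5a1, the alpha subunit of the F1 head, read 10.62 and 11.12 in KDM5A-H483A cells and 10.80 and 10.45 in empty vector cells, a log2 fold change of 0.24 with an interval of -0.25 to 0.73. Its groups overlapped. Ndufb9 differed by 0.28, with an interval of -0.37 to 0.92. Without the second KDM5A-H483A array the fold change turned to -0.09 for Ndufb9, -0.17 for Uqcrfs1 and -0.01 for Atp5a1. Sdha, the flavoprotein that oxidises succinate, read 9.58 and 9.67 in KDM5A-H483A cells and 9.52 and 9.54 in empty vector cells, a gap that is small beside the spread of most members.

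Wild-type KDM5A against empty vector had a median of -0.02 over the members, with a range of -0.40 to 0.46, beside 0.00 over all genes and 0.07 over genes with a mean above 7. The fold change was above 0 for 23 of 50 members, against 51.3% of all genes and 64.3% of genes with a mean above 7. The complexes had medians of -0.02 for I, 0.04 for II, -0.04 for III, 0.04 for IV and 0.01 for V. The wild-type KDM5A arrays lay wholly above the empty vector arrays for 9 members (16.5% of all genes, 23.8% of genes with a mean above 7) and wholly below them for 4 (15.4% and 7.99%), so neither count exceeds the larger of its backgrounds. The higher ones were Atp5b, Atp5g1, Cox6b1, Ndufa8, Ndufb6, Ndufb8, Ndufs3, Ndufs4 and Sdhd, and the lower ones Ndufs1, Ndufv1, Uqcrc2 and Uqcrq. Without the first empty vector array, 37 members were above 0 and the median was 0.08.

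Atp5g1, 1 of the genes for the c subunit whose ring turns in the membrane part of ATP synthase, had the largest estimate of this comparison. It read 8.91 and 8.69 in wild-type KDM5A cells and 8.19 and 8.49 in empty vector cells. The groups did not overlap, and the log2 fold change was 0.46 with a 95% confidence interval of -0.06 to 0.99 and an adjusted p of 1 by limma. In KDM5A-H483A cells it read 8.21 and 8.76, the first among the empty vector values and the second among those of wild-type KDM5A. Another gene for the same protein, Atp5g3, read 12.05 and 12.32 in KDM5A-H483A cells, 12.12 and 12.20 in wild-type KDM5A cells and 12.10 and 12.17 in empty vector cells, with all groups overlapping.

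Sdhd read 9.16 and 9.13 in wild-type KDM5A cells and 8.75 and 8.88 in empty vector cells, without overlap, a log2 fold change of 0.33 with an interval of -0.12 to 0.78. Its partner Sdhc did not share that layout, with 7.89 and 7.48 in wild-type KDM5A cells around the empty vector values. Ndufa5, an accessory subunit of complex I, had the lowest estimate, -0.40 with an interval of -0.99 to 0.20. It read 8.05 and 8.32 in wild-type KDM5A cells and 8.91 and 8.26 in empty vector cells, so the groups overlapped, and without the first empty vector array the estimate was -0.08. Another probe set of Ndufa5 gave -0.05 in this comparison. Uqcrc2, a core protein of complex III, read 9.28 and 9.65 in wild-type KDM5A cells and 9.80 and 9.70 in empty vector cells, without overlap, a log2 fold change of -0.28 with an interval of -0.83 to 0.26. By another probe set of Uqcrc2 the groups overlapped, with 8.28 and 8.42 in wild-type KDM5A cells and 8.44 and 8.32 in empty vector cells. Its fold change was -0.03.

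Cox8a differed by 0.17 in this comparison, with an interval of -0.33 to 0.68. Cycs, the electron carrier between complexes III and IV that also triggers apoptosis when released to the cytosol, split the wild-type KDM5A arrays. It read 10.60 and 11.19 in KDM5A-H483A cells, 10.45 and 11.20 in wild-type KDM5A cells and 10.98 and 10.92 in empty vector cells. The second arrays of both KDM5A groups were high and the first arrays low, with the empty vector cells between them. The log2 fold changes of Cycs were -0.05 for KDM5A-H483A against empty vector, -0.12 for wild-type KDM5A against empty vector and 0.07 for KDM5A-H483A against wild-type KDM5A, each with an interval over 1 log2 unit wide. Leaving out 1 array changed the sign of each.

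**Figure D4:**
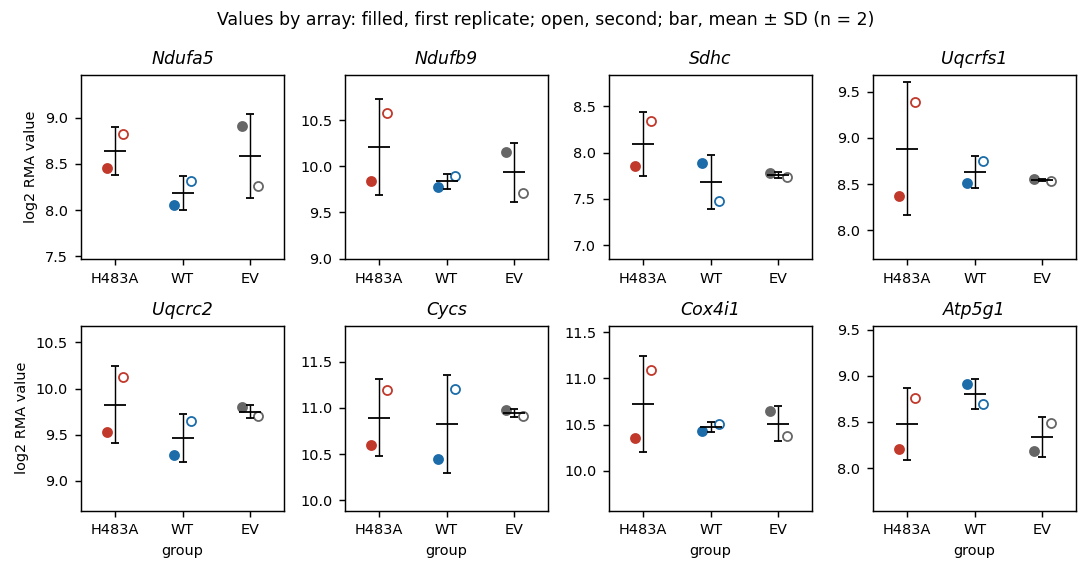
Log2 values by array for 8 genes (vertical axis, log2 RMA value over an equal span in each panel) in KDM5A-H483A, wild-type KDM5A and empty vector cells (horizontal axis); filled points are first replicates, open points second replicates, and bars the mean with its SD (n = 2). In the KDM5A-H483A group the open point lies above the filled one in all 8 panels, and for Uqcrfs1 it reads 9.39 against 8.37.

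For KDM5A-H483A against wild-type KDM5A, the comparison that sets the changed histidine against the unchanged protein, the median over the members was 0.07, with a range of -0.32 to 0.45. The median was -0.01 over all genes and -0.07 over genes with a mean above 7. The fold change was above 0 for 30 of 50 members, against 48.4% of all genes and 39.3% of genes with a mean above 7, and for 8 of 50 without the second KDM5A-H483A array, with a median of -0.11. Complex medians were 0.12 for I, 0.11 for II, 0.23 for III, -0.04 for IV and 0.05 for V. The KDM5A-H483A arrays lay wholly above the wild-type KDM5A arrays for 2 members, Ndufa1 and Ndufa5 (14.9% of all genes, 9.24% of genes with a mean above 7). They lay wholly below for 5, Atp5h, Cox7a2, Ndufb6, Ndufs3 and Uqcrb (16.1% and 21.4%).

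Ndufa5 read 8.45 and 8.82 in KDM5A-H483A cells, above both wild-type KDM5A values, with a log2 fold change of 0.45, an interval of -0.14 to 1.05 and an adjusted p of 0.928 by limma. Both KDM5A-H483A values also lay within the empty vector values. By another probe set of Ndufa5 the groups overlapped, with 6.95 and 7.55 in KDM5A-H483A cells and 7.05 and 6.90 in wild-type KDM5A cells. Sdhc differed by 0.42, with an interval of -0.09 to 0.92, and Uqcrc2 by 0.36, with an interval of -0.19 to 0.90. For Sdhc the first KDM5A-H483A array fell between the wild-type KDM5A arrays. For Uqcrc2, 9.53 and 10.12 in KDM5A-H483A cells stood across the upper wild-type KDM5A value of 9.65. Atp5g1 had the lowest estimate, -0.32 with an interval of -0.84 to 0.20. Ndufs3, a core subunit of complex I, read 9.25 and 9.28 in KDM5A-H483A cells and 9.80 and 9.35 in wild-type KDM5A cells, without overlap, and is named for that after its values were seen.

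The members with the smallest spread gave the tightest bounds. Ndufs1, the largest iron-sulfur core subunit of complex I, read 7.86 and 8.05 in KDM5A-H483A cells, 7.86 and 7.93 in wild-type KDM5A cells and 7.94 and 7.97 in empty vector cells. Its log2 fold change was 0.00 for KDM5A-H483A against empty vector, with an interval of -0.31 to 0.30. Of the 50 members, 2 had both KDM5A-H483A arrays below every other array, against 5.78% of all genes and 5.28% of genes with a mean above 7. Ndufb6, an accessory subunit of complex I, read 10.46 and 10.53, against 10.62 and 10.68 in wild-type KDM5A cells and 10.61 and 10.55 in empty vector cells. Cox7a2, a subunit of complex IV, read 11.46 and 11.56, against 11.57 and 11.74 in wild-type KDM5A cells and 11.58 and 11.61 in empty vector cells. Against empty vector the log2 fold change was -0.09 for Ndufb6, with an interval of -0.37 to 0.20, and -0.08 for Cox7a2, with an interval of -0.39 to 0.22. This layout depends on the probe set. Another one of Ndufb6 read 8.56 and 8.75 in KDM5A-H483A cells and 8.56 and 8.53 in empty vector cells. Another one of Cox7a2 read 9.41 and 9.73 in KDM5A-H483A cells and 9.47 and 9.53 in empty vector cells.

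The second KDM5A-H483A array was also high in genes that work beside the listed subunits. Of 24 further subunits measured, 23 were higher in the second than in the first KDM5A-H483A array, with a median difference of 0.37, and 15 were highest there of all 6 arrays. Of 16 genes of the citric acid cycle and pyruvate dehydrogenase, which supply NADH and succinate, 15 were higher, with a median of 0.52, and 11 were highest there. Of 37 assembly factors, which help build the complexes without staying in them, 27 were higher, with a median of 0.25. The 7 isoforms typical of muscle, testis or other tissues had a median of -0.04 and 2 of 7 were higher. These isoforms were dim. In KDM5A-H483A cells Cyct read 3.14 and 3.25 and Cox6a2 5.74 and 5.56, while the lowest mean of a member was 7.21. Differences of such dim genes are compressed, so this contrast with the members says little.

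Ndufs5, a subunit of complex I outside the list of 51, had the largest difference of the further subunits. It read 5.77 and 6.73 in KDM5A-H483A cells, 5.68 and 5.53 in wild-type KDM5A cells and 5.73 and 5.38 in empty vector cells, so that both KDM5A-H483A values were above the others by a margin that was narrow for the first array. The log2 fold change was 0.69 against empty vector, with an interval of -0.05 to 1.44. Dlst, the transferase of the 2-oxoglutarate dehydrogenase complex, read 7.65 and 8.47 in KDM5A-H483A cells, 7.43 and 7.57 in wild-type KDM5A cells and 7.73 and 7.52 in empty vector cells. Ogdh, of the same enzyme complex, was the exception among the citric acid cycle genes, with 7.98 and 7.59 in KDM5A-H483A cells.

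Regulators of these genes were split. Tfam, which packages and transcribes mitochondrial DNA, read 6.11 and 6.89 in KDM5A-H483A cells, 6.23 and 5.91 in wild-type KDM5A cells and 6.36 and 5.98 in empty vector cells, highest in the second KDM5A-H483A array. Gabpa, the DNA-binding part of GABP, read 8.77 and 8.24 in KDM5A-H483A cells, 8.85 and 8.97 in wild-type KDM5A cells and 8.73 and 8.96 in empty vector cells, lowest in that array. Yy1 read 10.52 and 9.98 in KDM5A-H483A cells, 10.57 and 10.49 in wild-type KDM5A cells and 10.49 and 10.54 in empty vector cells, again lowest in that array. Nrf1 read 6.15 and 5.99 in KDM5A-H483A cells, 6.26 and 6.19 in wild-type KDM5A cells and 6.12 and 6.14 in empty vector cells. Nrf1, Gabpa and Yy1 were thus all lowest in the array in which most subunit genes were highest, a description chosen after these values were seen and without a test. Of the 14 regulators, 11 were higher in the second than in the first KDM5A-H483A array, with a median of 0.19. In that second array 9 of the 14 had their highest value of all 6 arrays, against 23.2% of all genes and 29.8% of genes with a mean above 7. Nrf1, Gabpa and Yy1 were the only ones with their lowest value there. The same array was the lowest for 4206 of all 18194 genes and for 1528 of the 5118 with a mean above 7. A count of 3 of 14 is therefore not above the background.

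**Figure D5:**
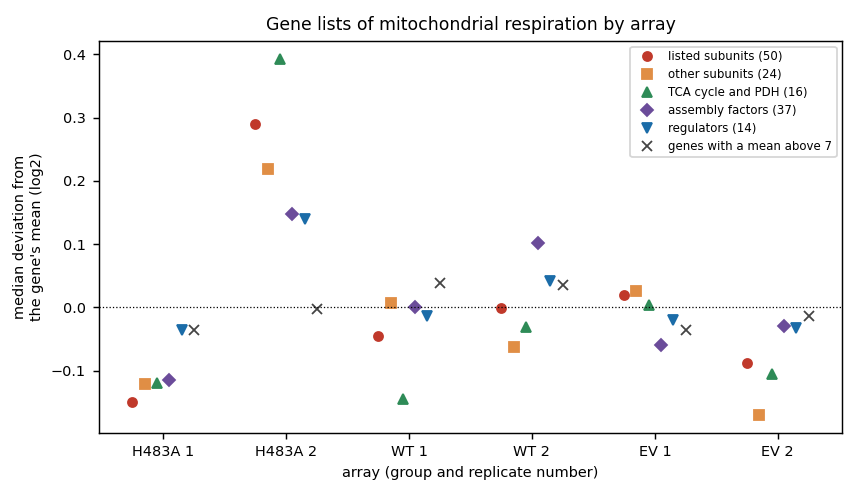
Median deviation of each gene list from its genes' own means (vertical axis, log2 units) in each array (horizontal axis, group and replicate number), with the number of genes in brackets and crosses for all genes with a mean above 7. In the second KDM5A-H483A array the medians are 0.29 for the listed subunits and 0.39 for citric acid cycle and pyruvate dehydrogenase (PDH) genes, while genes with a mean above 7 stay near 0.

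Between groups, the further lists gave no call either. Limma called 0 of the 98 genes on the 5 lists in each comparison after adjustment over all genes. At an unadjusted p under 0.05, Coa3, an assembly factor of complex IV, was found for wild-type KDM5A against empty vector, and Uqcc1 and Lyrm7, both assembly factors of complex III, for KDM5A-H483A against wild-type KDM5A. That is 1 of 98 and 2 of 98 genes, below the 2.52% and 3.81% of all genes. The further subunits had medians of 0.12 for KDM5A-H483A against empty vector, 0.00 for wild-type KDM5A against empty vector and 0.08 for KDM5A-H483A against wild-type KDM5A. For the citric acid cycle and pyruvate dehydrogenase genes the medians were 0.16 for KDM5A-H483A against empty vector, -0.07 for wild-type KDM5A against empty vector and 0.19 for KDM5A-H483A against wild-type KDM5A. The medians of the assembly factors, the regulators and the tissue isoforms lay between -0.06 and 0.08 in all comparisons.

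Coa3 read 7.54 and 8.07 in KDM5A-H483A cells, 7.96 and 7.93 in wild-type KDM5A cells and 7.46 and 7.46 in empty vector cells. Its wild-type KDM5A and empty vector arrays did not overlap, and the log2 fold change between them was 0.49, with an interval of 0.04 to 0.94 and an adjusted p of 1 by limma. Cox10, which makes the haem of complex IV, read 6.56 and 7.19 in KDM5A-H483A cells, 6.03 and 6.74 in wild-type KDM5A cells and 6.61 and 6.68 in empty vector cells. Like Cycs, it was low in the first and high in the second array of both KDM5A groups. Idh2, the mitochondrial NADP-dependent isocitrate dehydrogenase, read 8.31 and 8.58 in KDM5A-H483A cells, 8.25 and 7.57 in wild-type KDM5A cells and 8.49 and 7.81 in empty vector cells. Ndufa6, an accessory subunit of complex I, read 8.07 and 8.57 in KDM5A-H483A cells, 7.98 and 7.73 in wild-type KDM5A cells and 8.32 and 7.61 in empty vector cells. For these 2 genes the second array was the lower one in both other groups, so that the lowest values came from them. Cox6b2, a testis isoform of a complex IV subunit, ran against the members, with 5.75 and 4.55 in KDM5A-H483A cells, 6.09 and 4.67 in wild-type KDM5A cells and 5.20 and 5.02 in empty vector cells. Ndufa4l2, a relative of Ndufa4 that hypoxia induces, read 4.78 and 4.66 in KDM5A-H483A cells, 5.02 and 4.91 in wild-type KDM5A cells and 4.96 and 4.78 in empty vector cells, all within a span of 0.36.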

How the data were processed

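For 6 arrays, 1 table of log2 values was deposited, and the submitters' processing notes name RMA as its source. Its version and probe annotation are not stated there. RMA corrects background, forces all arrays to 1 distribution and summarises probes on the log2 scale, which hides a change in total RNA per cell and compresses small differences of dim genes. The arrays had medians between 4.55 and 4.60, and no further scaling was done. The labels' protocols name whole-transcript labelling although the probes of this array type lie near 3′ ends, and do not say how both were combined. Arrays give no molecule counts, so their number limits the precision.

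Of 45101 probe sets, 34958 were paired with 1 gene symbol, 932 with several and 9211 with none. Symbols were updated through Entrez IDs to the GRCm38.p6 RefSeq table for 34754, and 18194 genes remained. A probe set whose ID ends in _x_at was used for the 100 genes with no other. Differences were tested with limma 3.58.1 in R 4.3.3, with 1 mean per group over all 6 arrays, 3 residual and 3.42 prior degrees of freedom, two-sided p-values and Benjamini-Hochberg adjustment at a threshold of 0.05. The fit was tested on simulated data.

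In each comparison and complex the member with the largest absolute fold change is named, with the members of the 5 largest and the 3 smallest SDs and 2 genes of each further list. The members, lists and naming rule were chosen with earlier results of these data known. Alternatives were a replicate block, the 2 groups alone, each array left out, other scalings, probe set choices and filters, and a variance trend. The restriction to a mean above 7, the counts of members above 0 and the counts of members highest in the second KDM5A-H483A array were added after seeing the data.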

Additional observations from a re-analysis of the deposited data

How the results depend on the processing

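Of 458 alternative values, 445 kept their direction and their side of the threshold or moved by less than the spread, 5 moved further and 8 reversed. Part of these could not move. The replicate block, the 2 groups alone, the variance trend and the filters by mean leave each member's fold change as it was. Those settings bear only on the calls. Every setting run called 0 genes and 0 members in each of the 3 comparisons. Leaving out 1 array at a time gave the members' median log2 fold change a range of -0.13 to 0.33 for KDM5A-H483A against empty vector, -0.059 to 0.081 for wild-type KDM5A against empty vector and -0.11 to 0.25 for KDM5A-H483A against wild-type KDM5A. The number of members above 0 ranged from 5 to 43 for KDM5A-H483A against empty vector, from 21 to 37 for wild-type KDM5A against empty vector and from 8 to 38 for KDM5A-H483A against wild-type KDM5A.

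The single genes that reversed did so when 1 array was left out, which leaves a group with 1 array that is assumed to vary like the others. Against empty vector, KDM5A-H483A values ranged from -0.092 to 0.65 for Ndufb9, from -0.17 to 0.85 for Uqcrfs1 and from -0.0062 to 0.49 for Atp5a1, each lowest without the second KDM5A-H483A array. Against wild-type KDM5A, Cox4i1 ranged from -0.11 to 0.62, lowest without the same array. Cycs ranged from -0.35 to 0.24 for KDM5A-H483A against empty vector, from -0.50 to 0.26 for wild-type KDM5A against empty vector and from -0.31 to 0.44 for KDM5A-H483A against wild-type KDM5A. Cycs was at 0.24 without the first KDM5A-H483A array, at 0.26 and -0.31 once the first array of wild-type KDM5A was dropped, and at -0.23 for KDM5A-H483A against wild-type KDM5A without the second KDM5A-H483A array. The cause was not tested.

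The replicate block changed no call, with 0 genes called. The medians of the members were 0.08 for KDM5A-H483A against empty vector, -0.02 for wild-type KDM5A against empty vector and 0.07 for KDM5A-H483A against wild-type KDM5A. The block cannot change these medians, because each group has an array of either replicate number. The labels do not say that a replicate number marks a shared culture or day, and the values do not settle it, so the numbers were not used as pairs. The correlation of same-numbered deviations over all genes was 0.02 for KDM5A-H483A with empty vector, 0.31 for wild-type KDM5A with empty vector and 0.53 for KDM5A-H483A with wild-type KDM5A. Over the 50 members it was -0.29, 0.10 and 0.12 in the same order. Under the scalings and probe set choices tried, 31 to 33 of the 50 members were highest in the second KDM5A-H483A array, and the median difference between the KDM5A-H483A arrays was 0.37 to 0.52.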
